A study of Danio rerio with 30 samples.

Results

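Expression of 9 zebrafish genes for ephrin-B ligands and EphB receptors was followed through fusion of the optic fissure: efnb1, efnb2a, efnb2b and efnb3b for the ligands, and ephb2a, ephb2b, ephb3a, ephb4a and ephb4b for the receptors. They were chosen by gene symbol and are 9 of the 27731 genes in the table of normalised read counts. The letters a and b mark the gene copies that zebrafish carry where mammals have a single gene. The libraries came from dissected optic fissure region (OF) at 32, 48 and 56 hours post-fertilisation (hpf) and, as control region at the same times, from dorsal retina (DR). These ages lie before, during and after the fissure closes, and the labels give 5 biological replicates for each of the 6 groups. The sources used here do not give genotype, strain or the number of embryos behind each library. Per the labels' protocols, RNA was recovered with a kit for fixed tissue, and libraries were made with one for small amounts of RNA. Ventral retina outside the fissure was not among the groups, so the fissure and a ventral position cannot be told apart.

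Ephrin-B proteins span the membrane of one cell and bind EphB receptor tyrosine kinases on a neighbouring cell. Both partners signal, forward through the receptor's kinase and in reverse through the tail of the ligand, and contact often ends in repulsion or in the sorting of cells across a border. In the retina of mouse and chick, ephrin-B ligands are known for high levels dorsally and EphB receptors for high levels ventrally. This guides ganglion cell axons in their target by their dorsoventral origin in the retina. Ephrin-B2 and EphB4 are also the classical partners on arterial and venous endothelium.

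Reads in genes numbered 4.49 M to 12.32 M per library, and their median was 9.75 M. All 9 genes passed the filter on low values (5 or more libraries with a normalised count of 10 or more), which left 17360 genes. One OF and DR pair stood apart at 32 hpf and another at 48 hpf. Replicate 1 at 32 hpf had reads in 13854 genes in OF and 11777 genes in DR, against 17462 or more in every other library. In replicate 5 at 48 hpf, ventral and dorsal eye genes did not match the labels. In the library labelled OF there were 21.6 normalised counts of the ventral gene vax2 and 569 of the dorsal gene aldh1a2, against 342 of vax2 and 89.9 of aldh1a2 in the library labelled DR. The regional results are therefore also given without both of these pairs. A further library, DR replicate 1 at 56 hpf, had reads in 25740 genes from 5.9 M reads in genes. Every other library had reads in 21805 genes or fewer. This library was not left out with the 2 pairs. The doubt about replicate 5 arose from genes that differ between OF and DR. Values at 48 hpf without it, and averages over the times without it, are therefore not independent evidence of a regional difference. In the other 28 libraries the labels and these genes went together: at 32 hpf, without replicate 1, vax2 averaged 730 ± 134 in OF libraries and 3.88 ± 4.51 in DR libraries (SD, n = 4 each).

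Differences between OF and DR were tested with limma on log2(normalised count + 1), with Benjamini-Hochberg adjustment over the 17360 genes, and an adjusted p under 0.05 counted as a call. Shares of all genes are shares of calls. The share of all genes at an unadjusted p under 0.05 was not computed, so counts at that level have nothing to be set against. Same-numbered OF and DR libraries of one time varied together, so a second fit took the pair as a block and left out both doubted pairs, which kept 13 of 15 pairs. It is called the paired fit here. Fold changes are OF over DR on the log2(value + 1) scale. For genes with few reads this scale can make changes too small, and libraries with few or no reads can make them too large. The tissue was bulk RNA, in which fewer cells of a type and less RNA per cell cannot be told apart.

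**Figure D1:**
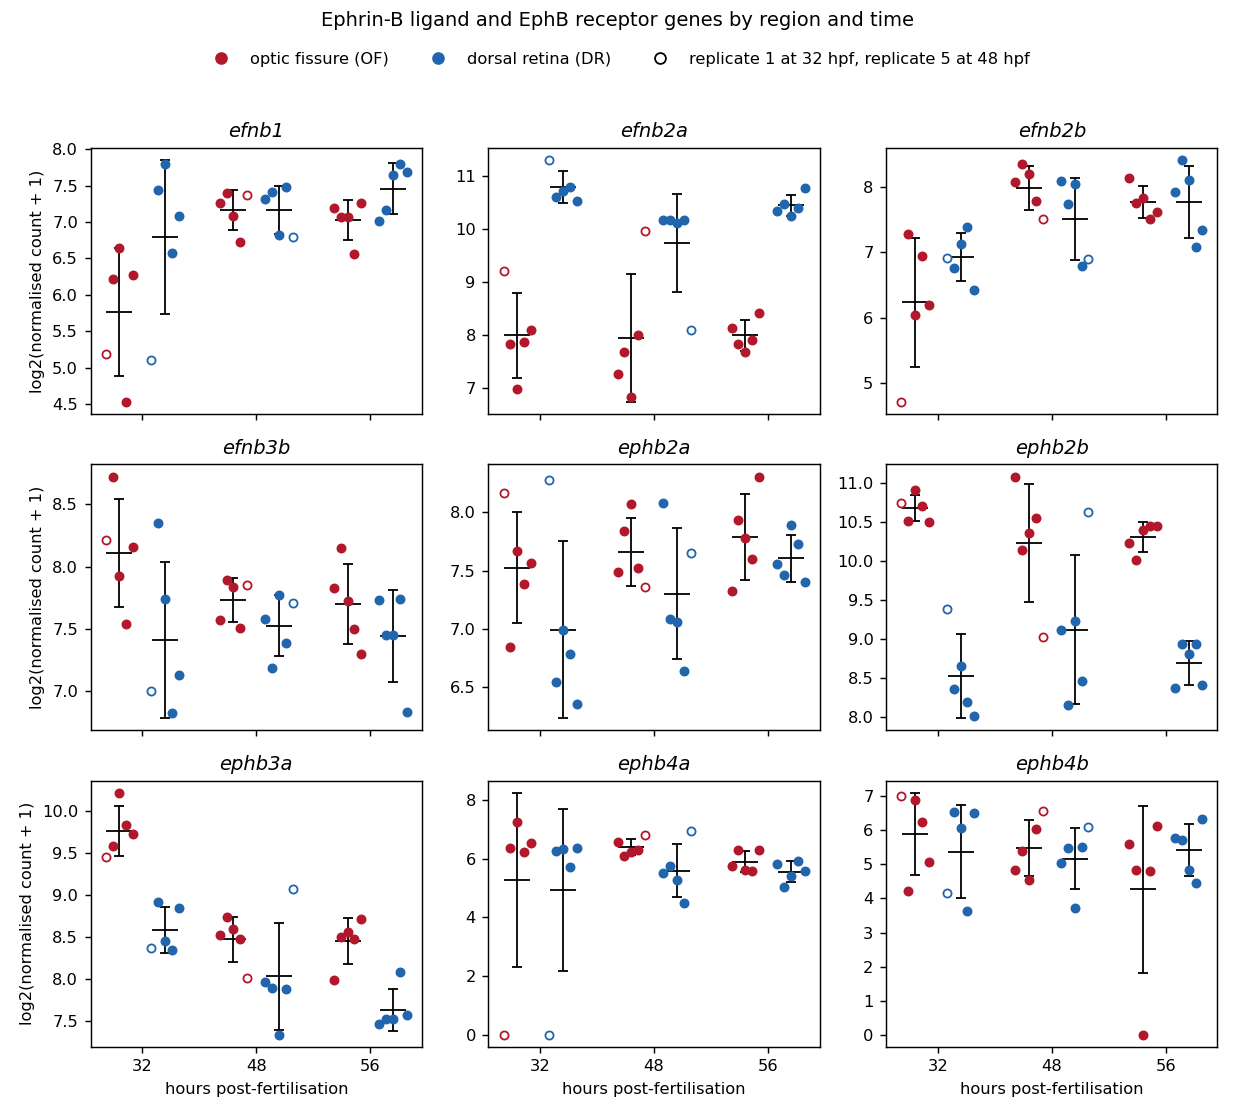
Normalised counts of the 9 genes on a log2(value + 1) scale against time, with OF left of DR at each time. Points are libraries, open points are replicate 1 at 32 hpf and replicate 5 at 48 hpf, and bars are means ± SD of all 5 libraries. At 32 hpf efnb2a is lower, and ephb2b and ephb3a are higher, in all OF libraries than in any DR library.

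The ligand gene efnb2a (ENSDARG00000020164) was low in the fissure region and high in dorsal retina at every time, with replicate 5 at 48 hpf as the exception. It encodes a zebrafish ephrin-B2, a ligand of EphB2, EphB3 and EphB4 in vertebrates. At 32 hpf efnb2a had 586, 227, 124, 233 and 270 normalised counts in OF replicates 1 to 5, against 2522, 1564, 1686, 1771 and 1476 in DR replicates 1 to 5. The OF and DR libraries did not overlap, and the highest value in each group was the one of replicate 1. At 48 hpf efnb2a had 151, 204, 112, 254 and 998 normalised counts in OF, against 1145, 1157, 1104, 1146 and 270 in DR. Here the exception was replicate 5, in which the library labelled OF lay nearer to the DR than to the OF values of the other replicates, and the library labelled DR nearer to the OF values. At 56 hpf efnb2a had 279, 226, 202, 238 and 339 normalised counts in OF, against 1294, 1419, 1219, 1353 and 1748 in DR, again with no overlap.

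For efnb2a the log2 fold change was -2.80 at 32 hpf (SE 0.43, limma adjusted p = 2.5e-04) and -2.46 at 56 hpf (SE 0.43, adjusted p = 0.00372), 6.97-fold and 5.51-fold lower in OF. At 48 hpf it was -1.80 (SE 0.43), which was not called in all libraries (adjusted p = 0.156) but was called without OF replicate 5 (-2.30, adjusted p = 8.4e-04) or without DR replicate 5 (-2.21, adjusted p = 0.00883). The paired fit gave -2.98 at 32 hpf, -2.72 at 48 hpf and -2.46 at 56 hpf, with SEs of 0.19, 0.19 and 0.17 and limma adjusted p of 2.2e-08, 1.6e-07 and 9.3e-08. Within pairs, efnb2a was lower in OF in 14 of 15 pairs, and in all 13 pairs without the doubted ones, where the log2 difference ran from -3.75 to -2.17. The levels of this gene fell into a dorsal and a fissure set. In rising order, mean levels were 257 ± 53.7 in OF at 56 hpf, 288 ± 175 in OF at 32 hpf and 344 ± 370 in OF at 48 hpf, followed by 964 ± 389 in DR at 48 hpf, 1407 ± 205 in DR at 56 hpf and 1804 ± 417 in DR at 32 hpf (SD, n = 5 each). Without replicate 5 the means at 48 hpf were 180 ± 61.9 in OF and 1138 ± 23 in DR (SD, n = 4 each). The 3 OF groups overlapped one another, and so did the DR groups at 32 and 56 hpf.

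The other copy of this ligand, efnb2b (ENSDARG00000074050), was not called between the regions at any time. At 32 hpf efnb2b had 25.2, 154, 64.9, 122 and 72.4 normalised counts in OF, against 120, 108, 139, 167 and 84.9 in DR. At 48 hpf efnb2b had 270, 326, 294, 219 and 181 in OF, against 273, 213, 263, 110 and 118 in DR. At 56 hpf efnb2b had 280, 214, 227, 181 and 196 in OF, against 241, 339, 275, 135 and 161 in DR. The groups overlapped at each time, and OF was the higher library in 8 of 15 pairs. The log2 fold changes for efnb2b, OF over DR, were -0.70 at 32 hpf, 0.47 at 48 hpf and -0.00 at 56 hpf (SE 0.36 each), with limma adjusted p of 0.603, 1 and 1. Whether efnb2a and efnb2b differ in their regional fold change was not tested.

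Efnb1 (ENSDARG00000007723), the ephrin-B1 ligand gene, had lower values in OF at 32 hpf in most pairs. At 32 hpf efnb1 had 35.5, 73.2, 98.9, 22.1 and 76.6 normalised counts in OF, against 33.3, 172, 222, 93.9 and 134 in DR. Replicate 1 was the pair without a difference, and without it a single OF library, that of replicate 3, reached above the lowest DR library. The log2 fold change of efnb1 at 32 hpf was -1.02 (SE 0.39, limma adjusted p = 0.332) over all libraries and -1.30 (SE 0.25, adjusted p = 0.00483) in the paired fit. Without DR replicate 1 alone it was -1.45 (adjusted p = 0.0225). At 48 hpf efnb1 averaged 145 ± 26.1 in OF libraries and 145 ± 32.2 in DR libraries, and at 56 hpf 131 ± 22.6 in OF libraries and 179 ± 41.4 in DR libraries (SD, n = 5 each). The groups overlapped at both times and efnb1 was not called at either. Averaged over the 3 times in the paired fit, efnb1 was lower in OF, with a log2 fold change of -0.62 (SE 0.14, limma adjusted p = 0.00552). This average was called in no other fit tried, among them the fit over all libraries.

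The fourth ligand gene, efnb3b (ENSDARG00000042277), encodes an ephrin-B3, known in mouse as a midline barrier to growing axons. In OF it averaged 286 ± 87.3, 213 ± 25.8 and 211 ± 48.6 normalised counts at 32, 48 and 56 hpf, and in DR 183 ± 88.5, 185 ± 30.5 and 177 ± 40.5 (SD, n = 5 each). Libraries overlapped at each time, yet the OF library was the higher one in 13 of 15 pairs. For efnb3b at 32 hpf the log2 fold change was 0.71 (SE 0.26) with a limma adjusted p of 0.307, of 0.0477 with every pair as a block, and of 0.136 in the paired fit without the doubted pairs (0.58, SE 0.19). Averaged over the times, the paired fit gave 0.35 (SE 0.11, limma adjusted p = 0.0322). With every pair as a block the average was called as well (0.39, limma adjusted p = 0.0292), but in no other fit tried, among them the fit over all libraries.

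The receptor gene ephb2b (ENSDARG00000021539) ran opposite to efnb2a, high in the fissure region and low in dorsal retina. EphB2 is known in mouse and chick as a ventral retinal receptor for ephrin-B ligands. At 32 hpf ephb2b had 1720, 1470, 1929, 1674 and 1455 normalised counts in OF, against 670, 328, 403, 292 and 257 in DR. At 48 hpf ephb2b had 2176, 1136, 1318, 1500 and 522 in OF, against 556, 284, 603, 352 and 1587 in DR. At 56 hpf ephb2b had 1200, 1032, 1349, 1406 and 1395 in OF, against 332, 488, 446, 491 and 339 in DR. The groups did not overlap at 32 and 56 hpf, and at 48 hpf they overlapped through replicate 5, whose library labelled OF was the lowest of its group and whose library labelled DR the highest of its group.

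For ephb2b the log2 fold change was 2.16 at 32 hpf (SE 0.34, limma adjusted p = 3.5e-04) and 1.62 at 56 hpf (SE 0.34, adjusted p = 0.0238), 4.46-fold and 3.06-fold higher in OF. At 48 hpf it was 1.12 (SE 0.34) and not called (adjusted p = 0.616), but it was called without OF replicate 5 (1.42, adjusted p = 0.0455) or without DR replicate 5 (1.49, adjusted p = 0.0188). The call at 56 hpf was narrow: it was lost when OF replicate 1, 3, 4 or 5 or DR replicate 1, 3, 4 or 5 at 56 hpf was left out, with limma adjusted p of 0.0526 to 0.102, although the log2 fold change stayed between 1.54 and 1.69. The paired fit gave 2.36 at 32 hpf, 1.79 at 48 hpf and 1.62 at 56 hpf, with SEs of 0.16, 0.16 and 0.14 and limma adjusted p of 3.7e-08, 4.1e-06 and 2.6e-06. Within pairs, ephb2b was higher in OF in 14 of 15 pairs, and in all 13 pairs without the doubted ones, by a log2 of 1.08 to 2.51.

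Ephb3a (ENSDARG00000031548), a gene for the EphB3 receptor that acts beside EphB2 in mouse retina, was also higher in OF, by less. At 32 hpf ephb3a had 699, 770, 1192, 915 and 849 normalised counts in OF, against 330, 482, 350, 325 and 460 in DR. At 48 hpf ephb3a had 369, 427, 386, 357 and 258 in OF, against 250, 237, 161, 235 and 539 in DR. At 56 hpf ephb3a had 254, 362, 377, 357 and 421 in OF, against 176, 184, 183, 270 and 189 in DR. The groups were apart at 32 hpf, overlapped through replicate 5 at 48 hpf, and at 56 hpf overlapped because OF replicate 1 lay below DR replicate 4.

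The log2 fold change of ephb3a was 1.18 at 32 hpf (SE 0.23, limma adjusted p = 0.00579), 2.26-fold higher in OF, while 0.44 at 48 hpf and 0.82 at 56 hpf were not called (SE 0.23, adjusted p = 1 and 0.221). In the paired fit ephb3a was called at each time, with 1.20 at 32 hpf (SE 0.19, limma adjusted p = 6.3e-04), 0.82 at 48 hpf (SE 0.19, adjusted p = 0.0183) and 0.82 at 56 hpf (SE 0.17, adjusted p = 0.00706). The OF library was the higher one in 14 of 15 pairs and in all 13 without the doubted ones. In order of level, ephb3a averaged 885 ± 190 in OF at 32 hpf, then 389 ± 75.5 in DR at 32 hpf, 359 ± 62.6 in OF at 48 hpf and 354 ± 61.5 in OF at 56 hpf, then 284 ± 146 in DR at 48 hpf and 200 ± 39 in DR at 56 hpf (SD, n = 5 each). The middle 3 of these groups lay within one another's spread.

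The remaining receptor genes were called between the regions at no single time. Ephb2a (ENSDARG00000037373), the other EphB2 copy, averaged 191 ± 62.6, 204 ± 43 and 226 ± 59.2 in OF at 32, 48 and 56 hpf, and 144 ± 94.5, 167 ± 68.2 and 196 ± 27.9 in DR (SD, n = 5 each). Its log2 fold changes of 0.54, 0.36 and 0.18 were not called (SE 0.31, limma adjusted p = 0.673, 1 and 1), and 9 of 15 pairs were higher in OF. Averaged over the times in the paired fit, ephb2a was called at 0.47 (SE 0.14, limma adjusted p = 0.0319). The average was called in no other fit tried, among them the fit over all libraries.

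Ephb4a (ENSDARG00000100725) and ephb4b (ENSDARG00000027112) encode copies of EphB4, the venous endothelial receptor. Ephb4a had no read in OF replicate 1 and in DR replicate 1 at 32 hpf, where 3 reads would have been 4.44 and 9.99 normalised counts, a floor that covers counting error only. The other OF libraries had 46.5 to 151 normalised counts of ephb4a over the 3 times, and the other DR libraries 21.3 to 123. At 48 hpf without replicate 5, the 4 OF libraries (67.1 to 93.0) lay above the 4 DR libraries (21.3 to 52.8), with a log2 fold change of 1.04 in the paired fit (SE 0.32, limma adjusted p = 0.0697). The average over the times was called for ephb4a in the paired fit, at 0.60 (SE 0.18, limma adjusted p = 0.0274), but not over all libraries (0.49, SE 0.58, adjusted p = 0.776). Ephb4b ran from 0 to 129 normalised counts in OF and from 11.5 to 91.2 in DR and was called in no comparison of the regions by limma, edgeR or DESeq2. Its single library without a read was OF replicate 3 at 56 hpf, where 3 reads would have been 2.6 normalised counts.

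**Figure D2:**
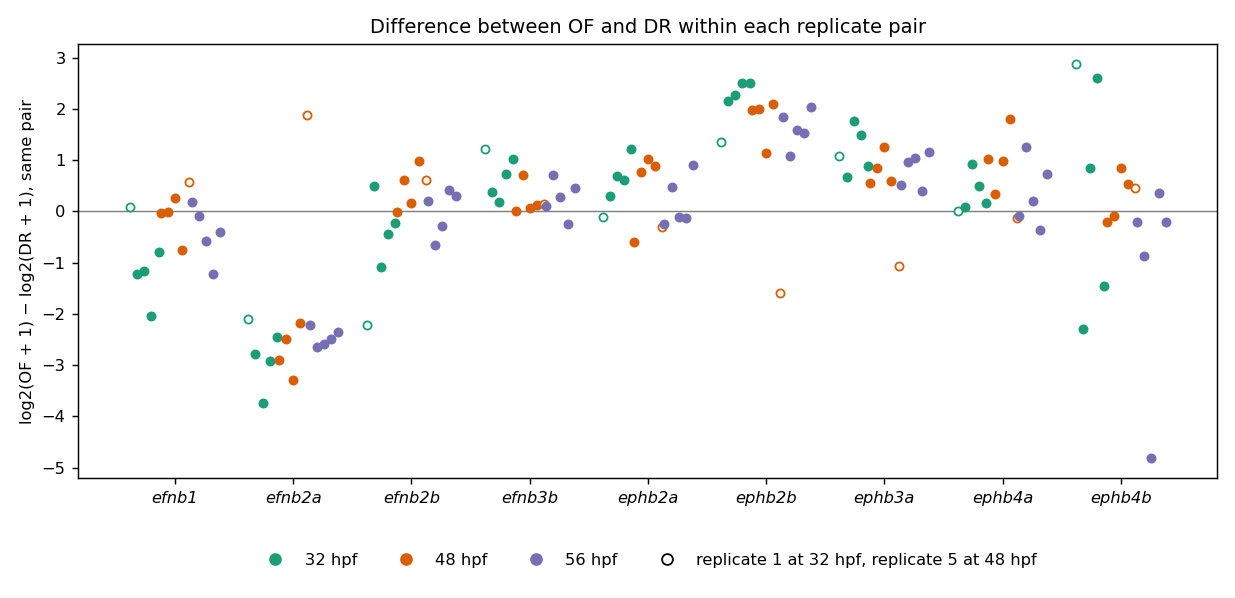
Difference between OF and DR on the log2(value + 1) scale within each pair of same-numbered libraries, by gene. Colours mark the time and open points the doubted pairs. For efnb2a all 13 filled points lie below 0, and for ephb2b and ephb3a all 13 lie above 0; the open points across the line in these genes are replicate 5 at 48 hpf.

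Counted over the 9 genes, 3 were called at 32 hpf, in either direction, against 1.14% of all genes tested. At 48 hpf limma called 0 of 9 over all libraries, 2 at an unadjusted p under 0.05, and edgeR and DESeq2 also called 0; of all genes 0.00576% were called. At 56 hpf 2 of 9 were called against 0.253% of all genes. The paired fit called 4 of 9 at 32 hpf, 3 at 48 hpf and 3 at 56 hpf, against 3.25%, 4.5% and 4.72% of all genes. At 48 hpf, leaving out both doubted pairs without the block also gave 3 of 9, against 0.518%. That fit gave 3 of 9 at 32 hpf and 3 at 56 hpf, against 176 and 95 of 17360 genes. With every pair as a block and none left out, 4, 0 and 2 of 9 were called at 32, 48 and 56 hpf, against 2.82%, 0.202% and 2.25% (3 at an unadjusted p under 0.05 at 48 hpf). Averaged over the times, 3 of 9 were called over all libraries against 1.49% of all genes. In the paired fit 7 of 9 were called against 15.7%, with efnb2b and ephb4b as the uncalled ones. Without both doubted pairs and without the block there were 3, against 676 of 17360 genes. With every pair as a block and none left out there were 4, without efnb1, ephb2a and ephb4a, against 1592 of 17360 genes. In the left-out replicate 5 pair at 48 hpf, the log2 differences of efnb1 (0.57), ephb2a (-0.30) and ephb4a (-0.14) ran against these averages. That of efnb3b (0.14) ran with its average. The median log2 fold change of the 9 genes was 0.51, 0.36 and 0.18 at 32, 48 and 56 hpf, and that of all genes 0.06, 0.10 and 0.08. By the libraries themselves, 3 of 9 genes had no overlap between OF and DR at 32 hpf and 2 of 9 at 56 hpf, against 1.17% and 2.95% of all genes, and without replicate 1 there were again 3 at 32 hpf, against 3.13%. At 48 hpf none of the 9 was without overlap, against 0.887% of all genes, and without replicate 5 there were 4, against 6.43%.

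Because efnb2a and ephb2b ran in opposite directions, their ratio within a library separated the regions, apart from replicate 5 at 48 hpf. Both genes had already differed between the regions in these same libraries, so the ratio describes those values again and is not further evidence. The log2 of ephb2b minus that of efnb2a, on the log2(value + 1) scale, lay between 1.55 and 3.95 in OF and between -2.60 and -1.91 in DR at 32 hpf. At 56 hpf it lay between 2.04 and 2.73 in OF and between -2.36 and -1.45 in DR. At 48 hpf the libraries other than replicate 5 lay between 2.47 and 3.84 in OF and between -2.02 and -0.87 in DR. In replicate 5 the library labelled OF had -0.93 and the library labelled DR 2.55, each on the side of the other region. Differences in transcript length are not removed from this ratio, so its sign within a library does not compare the abundance of the genes.

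**Figure D3:**
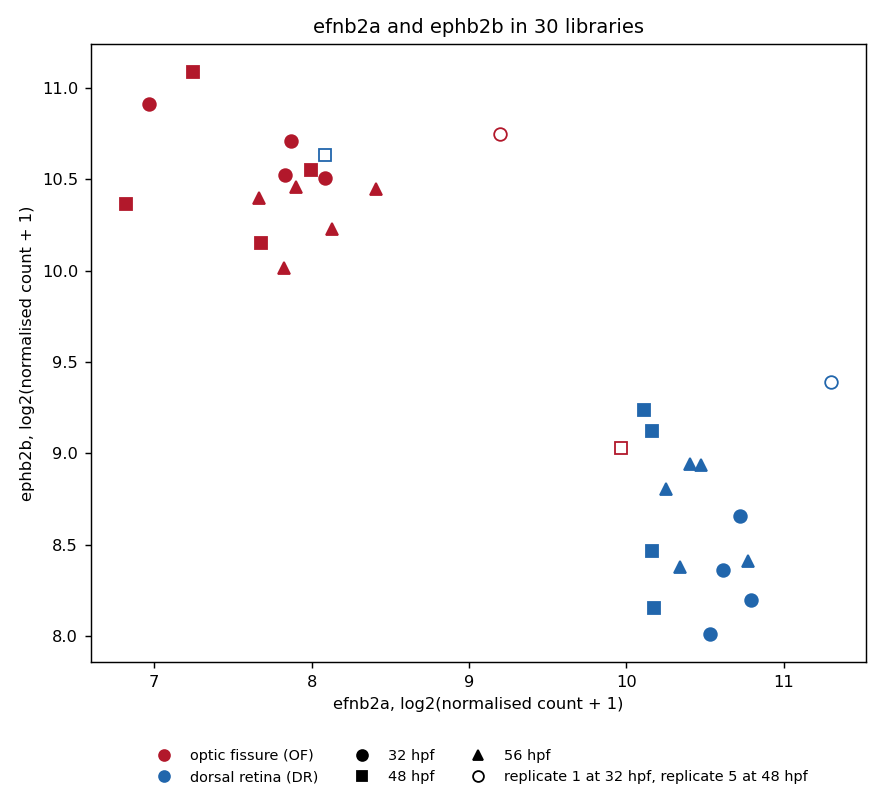
Efnb2a against ephb2b in the 30 libraries, both as log2(normalised count + 1). Colour gives the region, shape the time, and open symbols the doubted pairs. OF libraries lie at low efnb2a and high ephb2b, DR libraries at the opposite end, and the open squares, replicate 5 at 48 hpf, lie on the side opposite to their labels.

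Whether the regional difference itself changed over fusion was tested as an interaction. No member was called in any of the 3 comparisons of times by limma over all libraries, by the paired fit, by edgeR or by DESeq2. Of all genes, 0.00576% were called for 48 against 32 hpf and for 56 against 32 hpf, and 0% for 56 against 48 hpf. At an unadjusted p under 0.05, 3 members differed for 48 against 32 hpf over all libraries and 0 in the other 2 comparisons. These unadjusted counts are not comparable with the shares of all genes called. In the paired fit, where 0.403% of all genes were called for 48 against 32 hpf and 0.403% for 56 against 32 hpf, 3 members differed at that unadjusted level for 48 against 32 hpf and 2 for 56 against 32 hpf. Among them was efnb1, whose OF over DR log2 fold change was higher at 48 than at 32 hpf by 1.16 (SE 0.36, limma adjusted p = 0.184). For ephb2b it was lower at 56 than at 32 hpf, with a difference of -0.74 (SE 0.22, limma adjusted p = 0.163).

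Over time, ephb3a fell and efnb1 and efnb2b rose in the fissure region between 32 hpf and the later ages. Ephb3a had a log2 fold change in OF of -1.29 at 48 against 32 hpf (SE 0.23, limma adjusted p = 6.7e-05) and of -1.31 at 56 against 32 hpf (SE 0.23, adjusted p = 3.4e-05). Efnb2b was higher in OF by 1.75 at 48 against 32 hpf (SE 0.36, limma adjusted p = 3.0e-04) and by 1.54 at 56 against 32 hpf (SE 0.36, adjusted p = 8.2e-04). Mean efnb2b in OF was 87.6 ± 50.5, 258 ± 58.3 and 220 ± 37.7 normalised counts at 32, 48 and 56 hpf (SD, n = 5 each), and the highest of the 5 libraries at 32 hpf lay below the lowest at either later time. The share of all genes without overlap between times was not computed, so this lack of overlap adds nothing to the calls. Efnb1 was higher in OF by 1.39 at 48 against 32 hpf (SE 0.39, limma adjusted p = 0.0054) and by 1.26 at 56 against 32 hpf (SE 0.39, adjusted p = 0.00918). The efnb1 calls were lost under quantile scaling, at 0.82 (adjusted p = 0.0547) and 0.58 (adjusted p = 0.161). Under the same scaling efnb3b was called lower in OF, at -0.63 for 48 against 32 hpf (adjusted p = 0.0399) and -0.74 for 56 against 32 hpf (adjusted p = 0.0125), and ephb4b at -2.52 for 56 against 32 hpf (adjusted p = 0.00777), a group with the library without a read.

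These 3 of 9 genes in OF stand against 35.2% of all genes called for 48 against 32 hpf and 42.2% for 56 against 32 hpf, so the share of members was close to that of all genes tested. The median of all genes was itself shifted upwards over time, by 0.38 and 0.42 in OF and by 0.35 and 0.46 in DR at 48 and 56 against 32 hpf, and under quantile scaling by -0.16, -0.22, -0.17 and -0.20. Relative to the medians over all libraries the fall of ephb3a was larger and the rise of efnb1 and efnb2b smaller than the values above; ephb3a and efnb2b kept their calls in OF under each scaling tried. Markers of several cell types changed over the same interval. Of the retinal ganglion cell markers 7 of 8 rose and 1 fell in OF by 48 hpf, and the summed level of the list was 2701 to 11796 normalised counts at 32 hpf, 14276 to 20917 at 48 hpf and 15827 to 21986 at 56 hpf. Of the pigment epithelium markers 3 of 5 rose in OF by 48 hpf, with sums of 7243 to 15072, 22197 to 35578 and 30136 to 40960 at 32, 48 and 56 hpf. In OF 2 of 7 mesenchyme markers and 1 of 18 endothelial markers were higher at 48 hpf, with median log2 fold changes of 2.09 and -0.04 over these lists. Of the dorsal eye markers 4 of 8 were higher in OF by 48 hpf, over all libraries and also without both doubted pairs. Of the ventral eye markers 2 of 6 were lower over all libraries, and 1 of 6 without these pairs. Of 8 retinal progenitor markers 2 were higher and 2 lower. The part of these changes in the values above was not tested.

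In dorsal retina ephb3a was lower at 56 than at 32 hpf, with a log2 fold change of -0.95 (SE 0.23, limma adjusted p = 0.00179), 1 of 9 members against 35.8% of all genes. For 48 against 32 hpf in DR limma called 0 of 9, 2 at an unadjusted p under 0.05, against 28.5% of all genes, and edgeR and DESeq2 called 0. Without both doubted pairs, where 29.8% of all genes were called, ephb3a was called there as well, at -0.87 (adjusted p = 0.00104), and ephb4a at -0.91 (adjusted p = 0.0318), the sign of which was positive over all libraries (0.66), among them the DR library without a read. Without these pairs 36.4% of all genes were called for 56 against 32 hpf in DR, and ephb2a was also higher, by 0.94 (limma adjusted p = 0.00428), and efnb2b by 0.84 (adjusted p = 0.0289). Efnb2a and ephb2b, which differed most between the regions, were called over time in neither region by limma over all libraries under the deposited scaling. With TMM scaling efnb2a was called lower in DR for 48 against 32 hpf, at -1.15 (limma adjusted p = 0.0448). It was also called there without OF replicate 1 at 32 hpf (adjusted p = 0.0458) or without OF replicate 5 at 48 hpf (adjusted p = 0.0208). In DR the log2 fold change of efnb2a for 48 against 32 hpf was -1.05 over all libraries (SE 0.43, limma adjusted p = 0.0646), among them the library labelled DR with 270 normalised counts, and -0.51 without both doubted pairs (SE 0.22, adjusted p = 0.0854). In DR 7 of 8 ganglion cell markers were higher at 48 than at 32 hpf, with sums of 3220 to 10184, 15793 to 21268 and 15119 to 18408 at 32, 48 and 56 hpf, and 9 of 18 endothelial markers were higher, with sums of 1053 to 2601, 2531 to 3625 and 1805 to 2727. In DR 3 of 7 mesenchyme markers and 1 of 5 pigment epithelium markers were also higher at 48 hpf. Of the dorsal eye markers 2 of 8 were lower there, and of 6 ventral eye markers 1 was higher and 1 lower. Of 8 retinal progenitor markers 2 were higher and 3 lower. The part of these lists in the DR values was not tested. Between 48 and 56 hpf limma, edgeR and DESeq2 called 0 of 9 members in OF and in DR; at an unadjusted p under 0.05 limma had 0 in each region, and 0.0173% of all genes in OF and 0.0115% in DR were called.

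**Figure D4:**
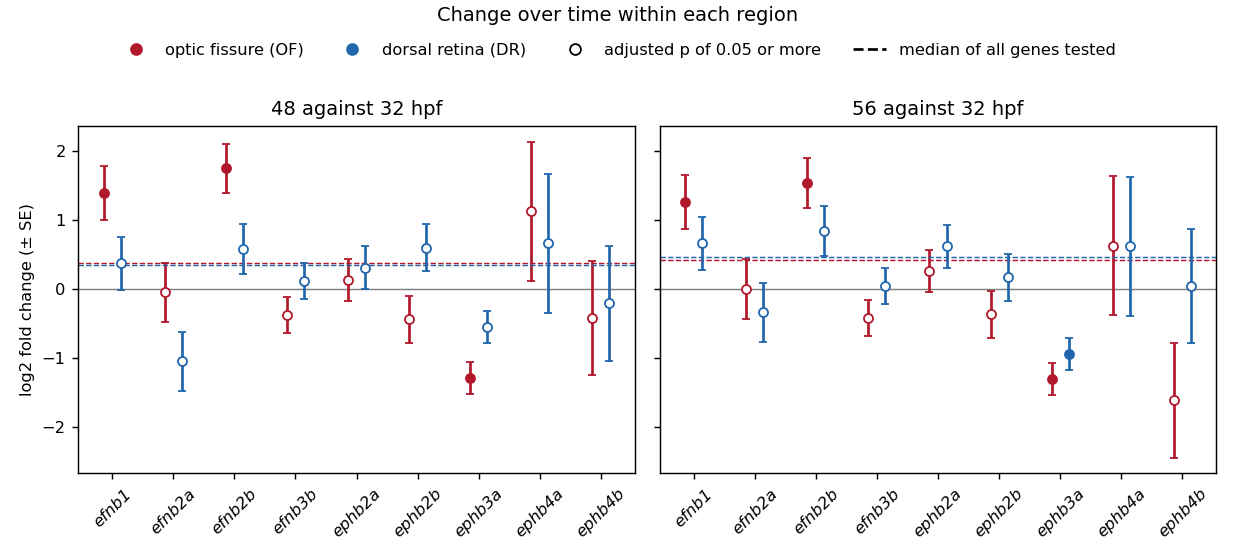
Log2 fold change (± SE, limma over all 30 libraries) of each gene at 48 and at 56 against 32 hpf, OF left of DR. Filled points have an adjusted p under 0.05 and dashed lines are the median of all genes tested in that region. Ephb3a lies below 0 and efnb1 and efnb2b above it in OF, with ephb3a also called in DR at 56 hpf.

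Of the other Eph and ephrin genes, 24 were listed, 20 found and 19 tested. At 32 hpf 1 of 19 was called between the regions, against 1.14% of all genes. It was epha2b, an EphA2 receptor gene, which averaged 54.3 ± 16.3 normalised counts in OF libraries and 5.39 ± 6 in DR libraries (SD, n = 5 each), a log2 fold change of 3.58 (SE 0.57, limma adjusted p = 4.6e-04). At 48 and 56 hpf limma, over all libraries, called 0 of 19, with 2 at an unadjusted p under 0.05 at each time. The paired fit called 3, 1 and 0 of 19 at 32, 48 and 56 hpf, against 3.25%, 4.5% and 4.72% of all genes. In the paired fit epha3 at 32 hpf (0.83, SE 0.20, limma adjusted p = 0.0267) and efna1a at 48 hpf (0.85, SE 0.23, adjusted p = 0.0412) were higher in OF. Efna3a was the third gene higher in OF at 32 hpf in the paired fit. It averaged 2.82 ± 2.38 normalised counts in the OF libraries of that fit (SD, n = 4), with 12 reads in all, and had no read in any of the 5 DR libraries. The list's median log2 fold change was 0.54, 0.27 and 0.33 at 32, 48 and 56 hpf, beside 0.06, 0.10 and 0.08 for all genes. At 32 hpf this median was 0.26 without both doubted pairs, with or without the block, and 0.29 with edgeR and with DESeq2. The ephrin-B3 copy efnb3a and the receptor genes ephb1 and ephb6 were on this list and were not called between the regions at any time.

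Over time 9 of 19 genes of this list were called in OF for 48 against 32 hpf, 5 higher and 4 lower, against 35.2% of all genes. The ligand gene efna1a was higher by a log2 of 2.33 (SE 0.28, limma adjusted p = 2.4e-07) and efna3a by 4.01 (SE 0.47, adjusted p = 1.2e-07). At 32 hpf efna3a had 12 reads in all 5 OF libraries and at most 6.28 normalised counts. It passed the filter on low values only through later libraries. Its rise was thus favoured by the filter and is not independent evidence, and its size rests on values near the floor. The receptor genes epha4b and epha7 were lower, at -1.83 (SE 0.28, limma adjusted p = 9.0e-06) and -2.28 (SE 0.36, adjusted p = 1.0e-05). In DR 9 of 19 genes of the list were called for 48 against 32 hpf, 6 higher and 3 lower, against 28.5% of all genes.

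Of 35 listed genes of the machinery downstream of Eph receptors and ephrins, such as kinases and adaptors, 33 were tested, and 1 was called at 32 hpf, against 1.14% of all genes. The paired fit called 2, 2 and 1 of 33 at 32, 48 and 56 hpf, against 3.25%, 4.5% and 4.72% of all genes. The gene called over all libraries at 32 hpf was src, for a cytoplasmic tyrosine kinase. It averaged 5.03 ± 4 normalised counts in OF libraries and 28.3 ± 16.7 in DR libraries at 32 hpf (SD, n = 5 each). The log2 fold change was -2.49 (SE 0.47, limma adjusted p = 0.00363), and the 5 OF libraries held 28 reads of src in all. Later its mean was the higher one in OF, uncalled, with 120 ± 33.1 against 89.8 ± 24 in DR at 48 hpf and 193 ± 76.3 against 112 ± 20.8 at 56 hpf. At 48 and 56 hpf limma called 0 of 33, with 0 and 1 at an unadjusted p under 0.05. In the paired fit tiam1a, a Rac activator, was higher in OF at each time, by 0.75, 0.61 and 0.62 at 32, 48 and 56 hpf (limma adjusted p = 0.0175, 0.0485 and 0.0231). The gene grip1, for a scaffold that binds the tails of ephrin-B ligands in mammals, was higher at 48 hpf by 0.60 (SE 0.16, limma adjusted p = 0.0391). Tiam1a was also higher over time, with 93.9 ± 57.3, 828 ± 276 and 1015 ± 199 normalised counts in OF at 32, 48 and 56 hpf and 63.3 ± 33.3, 640 ± 230 and 653 ± 71.9 in DR. In OF 11 of 33 genes of this list were called for 48 against 32 hpf, 10 higher and 1 lower, against 35.2% of all genes, and in DR 10 of 33, 9 higher and 1 lower, against 28.5%.

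Markers of cell types that the dissection could hold were read beside these values. Of all genes, limma called 1.14%, 0.00576% and 0.253% between the regions at 32, 48 and 56 hpf over all libraries. The paired fit called 3.25%, 4.5% and 4.72% at these times, and 15.7% averaged over them. At 32 hpf 4 of 18 endothelial markers were higher in OF and none lower, and 14 had an unadjusted p under 0.05. Their median log2 fold change was 2.25 over all libraries, 1.67 without both doubted pairs and 1.79 with edgeR. The sum of these markers ran from 2038 to 3036 normalised counts in OF and from 1053 to 2601 in DR. At 48 hpf this sum was 2369 to 4294 in OF and 2531 to 3625 in DR, and at 56 hpf 1922 to 2492 in OF and 1805 to 2727 in DR, with 0 of 18 called by limma at either time (1 and 0 at an unadjusted p under 0.05). The endothelial list, with cdh5, kdrl, tie1 and pecam1 as defining markers, had a read of each gene in every group. Ganglion cell markers were higher in OF for 2 of 8 genes at 32 hpf and for 0 of 8 at 48 and at 56 hpf (1 at an unadjusted p under 0.05 at each time). Their sum at 32 hpf was 2701 to 11796 normalised counts in OF and 3220 to 10184 in DR. Of 5 pigment epithelium markers 1 was lower in OF at 32 hpf, with sums of 7243 to 15072 in OF and 12397 to 22379 in DR. Of 7 mesenchyme and neural crest markers 0 were called at 32 hpf (2 at an unadjusted p under 0.05), with sums of 93.3 to 1089 in OF and 142 to 402 in DR. In the paired fit at 32 hpf, which also called efnb1, 4 of 18 endothelial, 4 of 8 ganglion cell and 3 of 7 mesenchyme markers were higher in OF and 2 of 5 pigment epithelium markers were lower. At 48 hpf that fit called none of the 18 endothelial, 5 pigment or 7 mesenchyme markers and 1 of 8 ganglion cell markers, lower in OF. At 56 hpf it called 1 of 8 ganglion cell markers, lower in OF, and 1 of 7 mesenchyme markers, higher in OF. Of 8 retinal progenitor markers limma over all libraries called 0 at each time (2, 0 and 2 at an unadjusted p under 0.05). The paired fit called 2, 2 and 1 of these 8 at 32, 48 and 56 hpf and 4 averaged over the times, all higher in OF. Averaged over the times, where it also called efnb1, efnb3b, ephb2a and ephb4a, 10 of 18 endothelial markers were higher in OF, with a median log2 fold change of 0.93, beside 5 higher and 1 lower of 8 ganglion cell markers, 3 higher of 7 mesenchyme markers and 2 lower of 5 pigment epithelium markers. The part of these cell types in the regional values of the 9 genes was not tested.

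As a description of which genes had the most similar profiles, Pearson correlations were taken on log2(normalised count + 1) over all 30 libraries, which share region, age and depth, among 10999 named genes with a mean of at least 50. The genes closest to efnb2a were tbx4 (0.90), aldh1a2 (0.89) and bambia (0.89), of which aldh1a2 and bambia are on the dorsal marker list. Closest to ephb2b were aldh1a3 (0.93), grem2b (0.91) and vax1 (0.91), of which aldh1a3 and vax1 are on the ventral list. For ephb3a they were sfrp1a (0.88), cyp1b1 (0.86) and bhlhe40 (0.85). Efnb1 and efnb2b were closest to genes of neither list, tmem62 (0.87) for efnb1 and nav3 (0.91) for efnb2b. Ephb4a, which has libraries without a read, had the highest correlations of the members. They were 0.95 each with pptc7b, CABZ01109843.1 and ric8b, which are on neither list. The highest correlation of ephb2a was 0.77, with rnf10. Those of efnb3b and ephb4b were lower, 0.66 with stk35l for efnb3b and 0.64 with parvaa for ephb4b.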

How the data were processed

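The deposited table holds a signal in the form of normalised read counts, which the authors made by dividing each library's reads by its size factor; 100.0% of values became whole reads (within 0.01) once each column's step was known. Per the submitters' processing notes, which state neither role nor order, the tools were HTSeq, STAR 2.4.0, DESeq2, Trim Galore and Picard, and the build GRCz10. The annotation release and the strand setting are not given in the sources used here. Reads shared between the close gene copies of these families could be split between them. The step of DR replicate 3 at 48 hpf was 1.005802, so its reads and normalised counts differed little.

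The 17360 genes with 5 or more libraries at 10 or above were fitted with limma-trend 3.58.1 in R 4.3.3 on log2(value + 1), with 6 group means over 30 libraries, 13 comparisons and Benjamini-Hochberg adjustment within each. The members and lists were chosen with earlier results of these data known. Named genes were all 9 members and the called list genes with the smallest adjusted p (up to 4 per list and comparison). Up to 3 of the most correlated genes per member were also named. Efnb3a, ephb1 and ephb6 were named as relatives of the members after their values were seen. Floors cover counting error only, whereas SDs and SEs come from the spread between libraries.

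The replicate numbers pair OF and DR within a time: deviations from group means of the 15 same-numbered pairs correlated at 0.23 to 0.52 (median 0.38), whereas one number at other times had a median of 0.03. Other numbers at the same time had a median of -0.1. Deviations cancel out within a group, so this value follows from that of the same numbers and is no separate evidence. Alternatives were pseudocounts of 0.5 and 5, other filters and scalings, blocks, leaving out libraries, edgeR 4.0.16 and DESeq2 1.42.0 on recovered reads. Methods were tested on simulated data. No sequence or coordinate was used here.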

Additional observations from a re-analysis of the deposited data

Results flagged for a closer look

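Among 54 groups of 5 libraries (9 genes in 6 groups), 7 held a library whose gap to its nearest neighbour was over 0.71 of the group's range; chance flags about 1 in 20 groups, which is 2.7 here. Of these, 4 were in replicate 5 at 48 hpf, and 3 belonged to genes that differ between the regions in its library labelled DR: efnb2a with 270 normalised counts, ephb2b with 1587 and ephb3a with 539. The fourth was efnb2a with 998 in the library labelled OF. Another 2 were in DR replicate 1 at 32 hpf, the library with the fewest genes detected, with 2522 normalised counts of efnb2a and 310 of ephb2a. The last was ephb3a with 270 in DR replicate 4 at 56 hpf, the library that overlaps OF replicate 1.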

How the results depend on the processing

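For the members and comparisons called over all libraries or in the paired fit, 964 alternative values kept direction and call, 19 gained a call, 11 lost one and none changed sign. The direction of many of these values was fixed beforehand. Leaving out a library of a group not compared does not change the fold change, and neither does a block that keeps every pair. These counts therefore do not measure how firm the results are. A kept call is one that equals the call over all libraries. For a result called in the paired fit but not over all libraries, it therefore means staying uncalled, as in 40 settings for efnb1 at 32 hpf. The gained calls include those of the paired fit by which such results were chosen. Outside the members and comparisons counted here, ephb4a for 48 against 32 hpf in DR was 0.66 over all libraries and -0.91 without both doubted pairs. At 48 hpf the count of members called between OF and DR, 0 over all libraries, was 3 in the paired fit (replicate block without both doubted pairs) and 3 without both pairs and without the block, and 0 to 2 when single libraries were left out (2 without OF or DR replicate 5 at 48 hpf). With every pair as a block it stayed 0 at 48 hpf and 2 at 56 hpf, and was 4 at 32 hpf. At 56 hpf the count of 2 was 1 with edgeR, which lost ephb2b, and 1 to 2 without single libraries. Averaged over the times, 3 became 7 in the paired fit and 4 with every pair as a block. Without both pairs and without the block it stayed 3, and that fit also gave 3 at 32 hpf and 3 at 56 hpf. In DR the count for 48 against 32 hpf, 0, was 2 with TMM scaling, 2 without both doubted pairs and 0 to 1 without single libraries (1 without OF replicate 1 at 32 hpf or OF or DR replicate 5 at 48 hpf). For 56 against 32 hpf in DR the count of 1 was 3 without both pairs, 2 with DESeq2 and 1 to 2 without single libraries (2 without OF or DR replicate 1 at 32 hpf or DR replicate 4 at 56 hpf). At 32 hpf leaving out single libraries gave 3 to 4. The cause of these shifts was not tested. Over all genes, the paired fit against the fit over all libraries called 565 against 198 at 32 hpf, 781 against 1 at 48 hpf, 820 against 44 at 56 hpf and 2729 against 259 averaged over the times. With every pair as a block these counts were 489, 35, 390 and 1592, with DESeq2 390, 25, 54 and 672, with edgeR 157, 3, 8 and 244, with quantile scaling 99, 1, 86 and 233, with TMM scaling 216, 3, 43 and 244, and without both pairs and without the block 176, 90, 95 and 676. The replicate number as a block over times changed no count of members. Ephb4a had 0 reads in 2 libraries and ephb4b in 1, where a level under 3 reads was not detectable. For ephb4a these libraries had 9.46 M (OF replicate 1 at 32 hpf) and 4.49 M (DR replicate 1 at 32 hpf) reads in genes. For ephb4b it was 10.27 M (OF replicate 3 at 56 hpf), beside a median of 9.75 M over all libraries.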
